A study of Drosophila melanogaster with 18 samples.

Results

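The 8 genes described here are the protein-coding copies of *Mst77Y* on the *Drosophila melanogaster* Y chromosome: *Mst77Y-4*, *CG45764*, *CG45765*, *CG45766*, *Mst77Y-7*, *Mst77Y-9*, *CG45770* and *Mst77Y-13*. They were taken by name, and the rule sets no threshold on a measured value. They are 8 of the 17575 genes counted, and 8 of the 18 *Mst77Y* copies that the annotation places on the assembled Y chromosome. The other 10 are annotated as pseudogenes. RNA came from adult testes of males aged 1 to 3 days. Control males were mod07570/+, heterozygous for 1 *modulo* allele, and keep a wild-type copy although their labels read "wt". *modulo* mutant males were modL8/mod07570 and carry the same mod07570 allele as the controls over a different *modulo* allele, modL8. There were 3 replicates of each genotype, and each replicate was sequenced on 3 lanes. Every RNA was purified from whole dissected testes, so more RNA per cell and more cells of the stage that holds the RNA cannot be told apart.

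In *Drosophila*, as in many animals, histones are removed from the chromatin of the maturing spermatid and replaced by small basic proteins, the protamines and protamine-like proteins, which pack the sperm nucleus. Their genes are transcribed in spermatocytes, and the RNA is stored and translated only after meiosis. Mst77F, encoded on chromosome 3L, is one of these proteins and is needed for male fertility, and *Mst77Y* is a multicopy Y-linked family that arose from the *Mst77F* gene. Modulo is the fly homolog of Nucleolin, a nucleolar protein. The comparison asks whether RNA of the Y copies differs between testes of *modulo* mutants and testes that keep a wild-type copy of *modulo*.

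All 8 genes lie on the plus strand within 69.9 kb of the Y (BDGP6.54, positions 3284939 to 3354870), with 3340 to 24854 bases between one and the next, and 4 of the 7 intervals hold pseudogene copies. Each consists of 2 exons with 1 short intron, of 65 bases in *CG45764* and 64 bases in the other 7. The coding sequence is 642 bases (214 residues) in 7 of them and 639 bases (213 residues) in *Mst77Y-4*, against 215 residues for Mst77F. The models differ mostly outside the coding part. *Mst77Y-4*, *CG45764*, *CG45765* and *CG45766*, the 4 at the start of the cluster, each have a 3' UTR of 151 bases in the annotation. *Mst77Y-13*, the last protein-coding copy, has one of 42 bases, and *Mst77Y-7*, *Mst77Y-9* and *CG45770* have none. The annotated 5' UTR is 146 bases in *CG45764*, 73 bases in *Mst77Y-4* and 15 bases in the other 6. Exon lengths in this annotation run from 660 to 942 bases, and the earlier release on which the counts were made may differ at these ends.

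Total counts ran from 87119206 to 94915990 in control and from 90898270 to 107435749 in the mutant. All 8 copies passed the filter on low counts, which asked for 10 or more counts in 3 or more samples, as did 14059 genes in all. Counts are given below as normalized counts, which are counts divided by each library's TMM-scaled size and multiplied by the mean of these sizes. Log2 fold changes are mutant relative to control, with the standard error (SE), and adjusted p-values come from the quasi-likelihood test of edgeR, adjusted by Benjamini-Hochberg over all 14059 genes. An exact permutation test of 3 samples against 3 cannot give a p below 0.1. The study calls its replicates independent experiments, but the labels do not say that they came from separate crosses or cultures, and these p-values measure the spread between these samples. *modulo* itself (*mod*) fell by 3.62 on the log2 scale, and no mutant sample reached the control range. The markers of the male germ line, *vas*, *bam*, *aly*, *can*, *betaTub85D*, *Mst87F* and *dj*, were all detected, with summed levels of 492400 to 553800 normalized counts in the controls and 546700 to 611300 in the mutants. None of the 7 passed the test, but all 7 had a log2 fold change above 0 (median 0.23), as did 52.1% of all genes tested. Their sum was higher in the mutant in all 3 same-numbered pairs.

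RNA from the protein-coding *Mst77Y* copies was higher in *modulo* mutant testes than in control, for every copy. The 8 copies summed had 25034, 26839 and 25050 normalized counts in control replicates 1 to 3 and 41442, 40885 and 41728 in mutant replicates 1 to 3. The samples of each genotype lay close together, and the 2 genotypes were far apart. The sum rose 1.61-fold, a log2 fold change of 0.69 (SE 0.073, 95% interval 0.52 to 0.86, adjusted p = 0.000661). As a share of all counts in a library, the 8 copies took 0.0273% to 0.0277% in control and 0.0424% to 0.043% in the mutant. All 8 copies passed the test as higher, with log2 fold changes from 0.54 to 0.82 and a median of 0.65. Over all genes tested 32.3% passed in either direction and 14.5% as higher, and the median log2 fold change was 0.02. For all 8 copies every mutant sample lay above every control sample, which held for 23.2% of all genes. The 8 copies share sequence, and read pairs that fit several of them were divided, so these are not 8 independent measurements. Pairs may also have been divided with the pseudogene copies or with *Mst77F*, which rose too, and how many were was not analysed here.

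**Figure D1:**
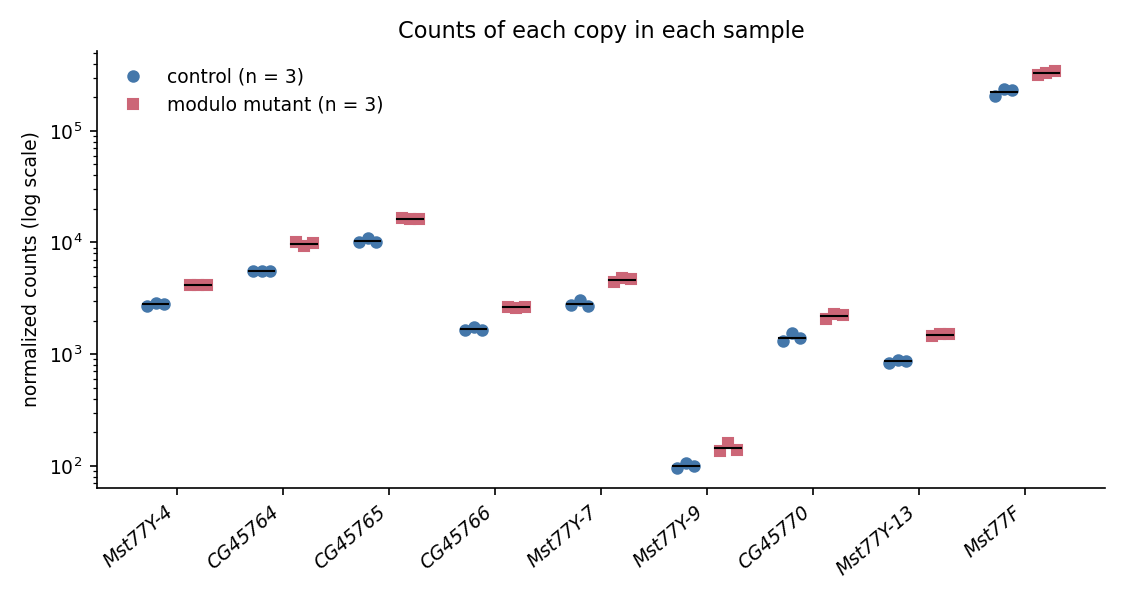
Normalized counts (log scale) of the 8 protein-coding *Mst77Y* copies, in order along the Y, and of *Mst77F*, with 1 point per replicate, circles for control (n = 3) and squares for *modulo* mutant (n = 3), and a line at each group mean. In every gene the 3 mutant replicates sit above the 3 control replicates, and *Mst77F* runs from 204111 to 346054 normalized counts while *Mst77Y-9* runs from 95.3 to 161.

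*CG45765* held the most counts. It had 10155, 11046 and 10052 normalized counts in the controls and 16451, 16144 and 16309 in the mutants. The highest control sample was well below the lowest mutant sample. Its log2 fold change was 0.65 (SE 0.0747, adjusted p = 0.000954). *CG45764*, the copy before it in the cluster, had 5526, 5573 and 5499 normalized counts in the controls and 10023, 9219 and 9965 in the mutants. Mutant replicate 2 was the lowest of the mutant samples and still far above control. At 0.82 (SE 0.0732, adjusted p = 0.000328), this was the highest log2 fold change among the 8.

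*Mst77Y-13*, which holds far fewer counts, changed about as much as *CG45764*. Its normalized counts were 828, 892 and 863 in control and 1463, 1515 and 1516 in the mutant, with all mutant samples well clear of control, and its log2 fold change was 0.80 (SE 0.0768, adjusted p = 0.00045). *Mst77Y-7* had 2764, 3028 and 2717 normalized counts in the controls and 4470, 4760 and 4750 in the mutants. These groups did not overlap either, and its log2 fold change was 0.72 (SE 0.08, adjusted p = 0.000827).

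*Mst77Y-4*, the first copy of the cluster and the one whose protein is a residue shorter, had 2724, 2900 and 2786 normalized counts in control. In the mutant it had 4206, 4168 and 4168, so its mutant samples were nearly equal. Its log2 fold change was 0.58 (SE 0.0702, adjusted p = 0.00117). *CG45766* had 1635, 1756 and 1653 normalized counts in the controls and 2644, 2612 and 2640 in the mutants, again without overlap. It changed by 0.65 on the log2 scale (SE 0.073, adjusted p = 0.000859). *CG45770* had 1311, 1535 and 1382 normalized counts in the controls and 2047, 2304 and 2240 in the mutants. In both genotypes replicate 2 was its highest sample and replicate 1 its lowest, and the log2 fold change was 0.64 (SE 0.0946, adjusted p = 0.0027).

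*Mst77Y-9* was the lowest copy by far. It had 95.3, 106 and 99 normalized counts in the controls and 137, 161 and 139 in the mutants, and mutant replicate 2 stood above the other 2 mutant samples. Its log2 fold change of 0.54 (SE 0.14, adjusted p = 0.0251) passed the test in all samples together. This call was lost without control replicate 1 (adjusted p = 0.087), control replicate 2 (0.0539), control replicate 3 (0.0896) or mutant replicate 2 (0.11), and in lanes 1, 2 and 3 taken singly (0.0683, 0.0691 and 0.0785), all by edgeR. The log2 fold change stayed between 0.41 and 0.59 under every alternative.

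**Figure D2:**
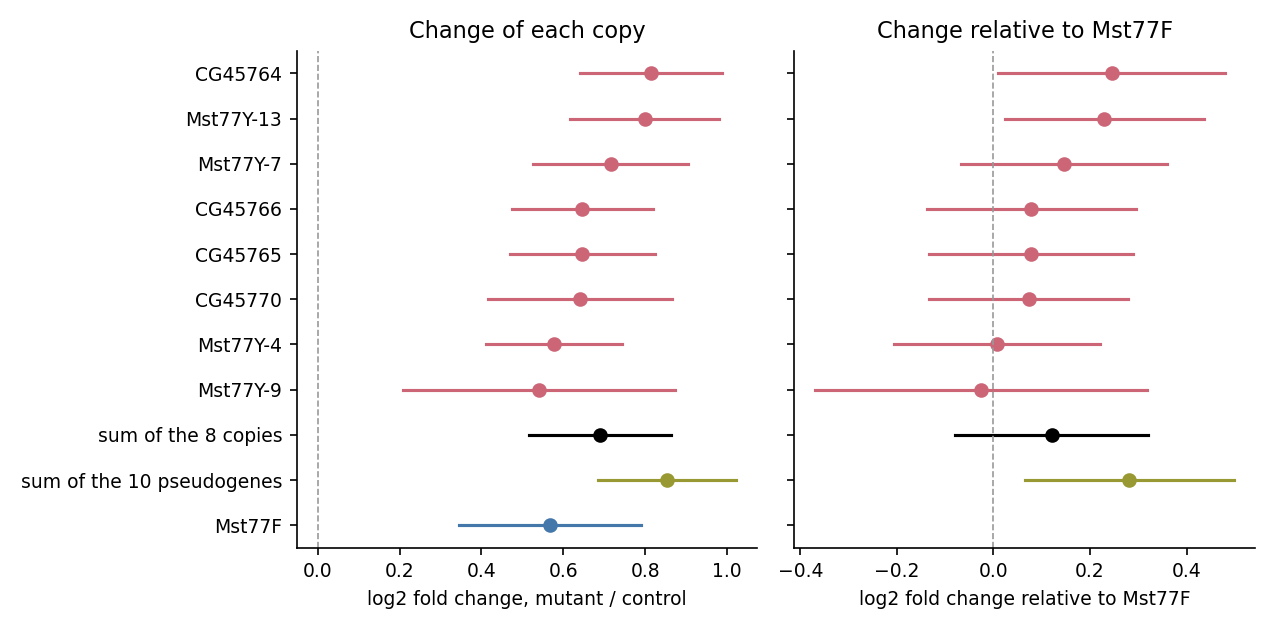
Left, log2 fold change (mutant over control) of the 8 copies, of their sum, of the 10 pseudogene copies summed and of *Mst77F*. Right, the same genes and sums with *Mst77F* as the reference. Points are edgeR estimates, lines 95% intervals and the dashed line no difference. All intervals on the left lie above 0, and on the right those of *CG45764*, *Mst77Y-13* and the summed pseudogenes lie above 0 before adjustment over genes.

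The counts assigned to the copies differed far more in level than in their change. Both the levels and the changes of single copies rest on how shared read pairs were divided. Per kilobase of annotated exon, *CG45765* had 12850 normalized counts in control (SD 674, n = 3) and *Mst77Y-9* had 152 (SD 8.29, n = 3). Between them on this scale came *CG45764* with 5873, *Mst77Y-7* with 4297, *Mst77Y-4* with 3237, *CG45770* with 2135, *CG45766* with 2073 and *Mst77Y-13* with 1227. Each copy's control range lay wholly above that of the next, except for *CG45770* (1986 to 2325) and *CG45766* (2016 to 2165), which could not be ordered. The mutant gave the same order per kilobase, from 20100 for *CG45765* to 221 for *Mst77Y-9*, and again only *CG45770* and *CG45766* overlapped. The order depends in part on the scale. Without division by exon length, *CG45766* lay wholly above *CG45770* in both genotypes. *Mst77Y-7* (2836) and *Mst77Y-4* (2803) then overlapped in control. The level did not fall evenly along the cluster. *Mst77Y-9* starts 51.5 kb from the start of *Mst77Y-4*, between *Mst77Y-7* at 42.6 kb and *CG45770* at 64.7 kb, and both of these neighbours among the protein-coding copies were far above it in every sample.

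**Figure D3:**
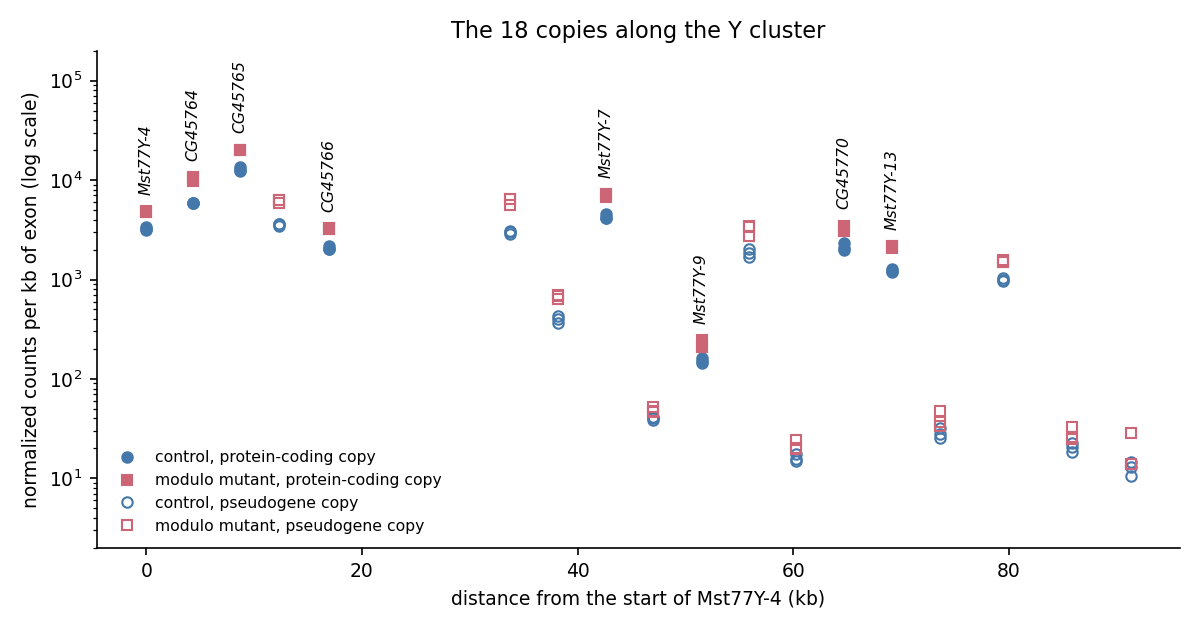
Normalized counts per kilobase of exon (log scale) of the 18 *Mst77Y* copies of the assembled Y against their distance in kb from the start of *Mst77Y-4*, with filled symbols for protein-coding copies and open ones for pseudogenes, circles for control replicates and squares for mutant replicates. The highest levels are those of *CG45765*, at 8.7 kb, and *Mst77Y-9*, at 51.5 kb, is the lowest protein-coding copy.

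The shares of the copies in the summed counts differed by small amounts between the genotypes, and no difference passed a test. A gain in any copy lowers the shares of others, and the shares rest on how shared read pairs were divided. *CG45765* took 40.6% ± 0.521 (SD, n = 3) of the counts on the 8 copies in the controls and 39.4% ± 0.312 (SD, n = 3) in the mutant. *CG45764* took 22.1%, 20.8% and 22% in control replicates 1 to 3 and 24.2%, 22.5% and 23.9% in mutant replicates 1 to 3. The mutant samples were the higher ones without overlap, by 1.94 percentage points on average. *Mst77Y-13* also gained, from 3.36% ± 0.0764 to 3.62% ± 0.088 (SD, n = 3 each). *Mst77Y-4* went the other way, from 10.9% ± 0.164 to 10.1% ± 0.108 (SD, n = 3 each), as did *CG45766*, which had 6.56% ± 0.0361 (SD, n = 3) in control and fell by 0.191 percentage points. For these 5 copies the groups did not overlap and the exact two-sided permutation p was 0.1, the smallest that 3 samples against 3 allow, so none passes a threshold of 0.05. The shares of *Mst77Y-7*, *Mst77Y-9* and *CG45770* overlapped between the genotypes (exact permutation p = 0.5, 0.2 and 0.6). The 4 copies with the 151-base 3' UTR together held 79.7% ± 0.389 of the counts in control samples and 79.4% ± 0.906 in mutant samples (SD, n = 3 each), and these groups overlapped too (exact permutation p = 0.7).

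**Figure D4:**
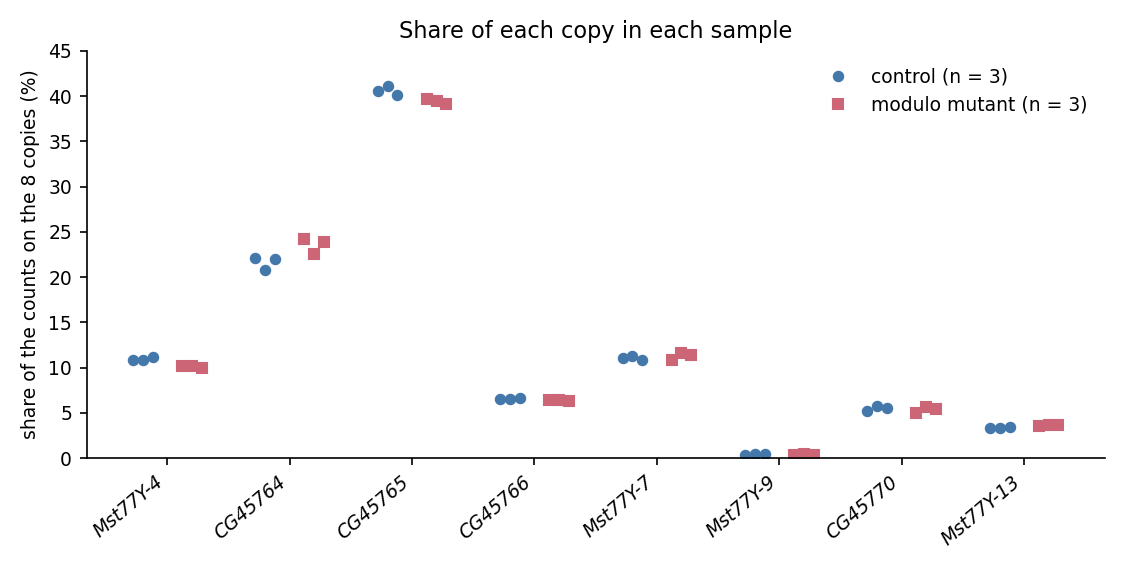
Share of each copy, in percent, in the counts summed over the 8 protein-coding copies, with 1 point per replicate, circles for control (n = 3) and squares for *modulo* mutant (n = 3). *CG45764* sits at 20.8% to 22.1% in control and 22.5% to 24.2% in the mutant, and *CG45765* near 40% in both.

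*Mst77F*, the autosomal relative, rose as well. These libraries hold total RNA without ribosomal RNA and were not selected for poly(A), so the counts do not measure polyadenylated RNA alone. By qRT-PCR the study found *Mst77F* reduced in poly(A)-selected RNA of the mutant and increased in total RNA. Its normalized counts were 204111, 236610 and 231179 in control and 316301, 332930 and 346054 in the mutant, without overlap, for a log2 fold change of 0.57 (SE 0.0937, adjusted p = 0.00427). The 8 Y copies summed came to 12.3%, 11.3% and 10.8% of the *Mst77F* counts in the control replicates and to 13.1%, 12.3% and 12.1% in the mutant replicates. The groups overlapped, since control replicate 1 reached the level of mutant replicate 2 (exact permutation p = 0.2). Within same-numbered pairs, this ratio was higher in the mutant in 3 of 3, as it was for 6 of the 8 copies singly, and *Mst77Y-4* and *Mst77Y-9* were higher in 1 of 3. The share of all genes for which this holds was not counted. The copies share reads and the same reference, and the labels do not say that same-numbered samples are pairs. To test whether a copy changed by more than *Mst77F*, edgeR was fitted over all genes with the *Mst77F* counts in place of the library size, which takes these counts to be without error. In this fit the 8 copies summed differed from *Mst77F* by 0.12 on the log2 scale (95% interval -0.08 to 0.32, adjusted p = 0.235), so a larger rise of the sum was not shown. None of the 8 copies passed as higher than *Mst77F* (0 of 8 at an adjusted p under 0.05), and 2.82% of all genes did.

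*CG45764* and *Mst77Y-13* came nearest to a larger change than *Mst77F*. For *CG45764* the difference was 0.24 (95% interval 0.01 to 0.48, adjusted p = 0.0628 by edgeR), and it passed when the replicate number was added as a block (0.25, adjusted p = 0.0113) or without control replicate 1 (0.31, adjusted p = 0.0433). For *Mst77Y-13* it was 0.23 (95% interval 0.02 to 0.44, adjusted p = 0.0501 by edgeR), and with counts left unrounded its adjusted p was 0.0499. In both copies the ratio to *Mst77F* was higher in the mutant sample in all 3 same-numbered pairs, and the groups did not overlap (exact permutation p = 0.1). The same held for *Mst77Y-7* (exact permutation p = 0.1). How many other genes show this was not counted. *Mst77Y-7* differed by 0.15 (95% interval -0.07 to 0.36), and *CG45765*, *CG45766* and *CG45770* by 0.07 to 0.08. *Mst77Y-4* (0.01, 95% interval -0.21 to 0.22) and *Mst77Y-9* (-0.03, 95% interval -0.37 to 0.32) lay close to the change of *Mst77F* itself, and the sign of either one turned under some alternatives. The order among the copies in this ratio is that of their fold changes, and the wide intervals do not show that any copy and *Mst77F* changed alike. Any pairs divided between a copy and *Mst77F* count on both sides of the ratio, and such pairs were not counted here.

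The 10 pseudogene copies in and beyond the same stretch of the Y give the rest of the family. Summed, they had 7400, 7447 and 7490 normalized counts in the controls and 13437, 12926 and 13980 in the mutants. The control samples were nearly equal and all mutant samples far above them, with a log2 fold change of 0.85 (SE 0.0715, adjusted p = 0.000242). All 10 were above 0 in log2 fold change, against 52.1% of all genes, with a median of 0.59. Of the 10, 5 passed the test as higher, at 0.61 to 1.05, against 14.5% of all genes. The 5 that did not pass had log2 fold changes of 0.29 to 0.57 and control means of 26.3 normalized counts or less. The highest by control level was *CR45771*, which lies between *CG45765* and *CG45766*, with a mean of 2817 in control and 4872 in the mutant. The lowest was *CR45780*, with 8.86 and 13.1. The protein-coding copies held 77.2%, 78.3% and 77% of the counts on all 18 copies in control replicates 1 to 3 and 75.5%, 76% and 74.9% in mutant replicates 1 to 3. This share was lower in every mutant sample, by 2.02 percentage points on average (exact permutation p = 0.1). Relative to *Mst77F*, the summed pseudogenes differed by 0.28 (95% interval 0.07 to 0.50, adjusted p = 0.0299 by edgeR). Among the single pseudogene copies only *CR45772* passed as higher (0.47, adjusted p = 0.011 by edgeR), as did 2.82% of all genes. The other pseudogene copies differed from *Mst77F* by -0.27 to 0.22 and did not pass.

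How far a count belongs to a single copy can be read in part from the lanes. Of the 144 lane values of the 8 copies, only 2 were whole numbers, so nearly all hold pairs divided among several positions. A count built from fractions of pairs scatters less between lanes than a count of whole pairs of the same size. The index of dispersion over the 3 lanes of each replicate, which is about 1 for whole pairs drawn at random, had a median of 0.958 in the 9977 genes with whole counts in all lanes and a mean of at least 30 counts a lane, with 95% of them between 0.366 and 2.02. It was 0.13 for *CG45764*, 0.158 for *CG45766*, 0.18 for *Mst77Y-9*, 0.187 for *Mst77Y-4* and 0.341 for *CG45765*, so 5 of the 8 copies lay below that range. *CG45770* (0.388) and *Mst77Y-13* (0.477) lay near its lower end. *Mst77Y-7*, at 0.882 (95% interval 0.454 to 2.4), lay near the median of the genes counted in whole pairs. *Mst77F* was at 1.23 (95% interval 0.63 to 3.34), although only 2 of its 18 lane values were whole, so the reference for the ratios above also holds divided pairs. The intervals rest on 12 degrees of freedom per gene and are wide. *Mst77Y-7* and *Mst77Y-13*, the copies with the 2 highest indices among the 8, had log2 fold changes of 0.72 and 0.80. Which pairs were divided between which copies was not analysed here.

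**Figure D5:**
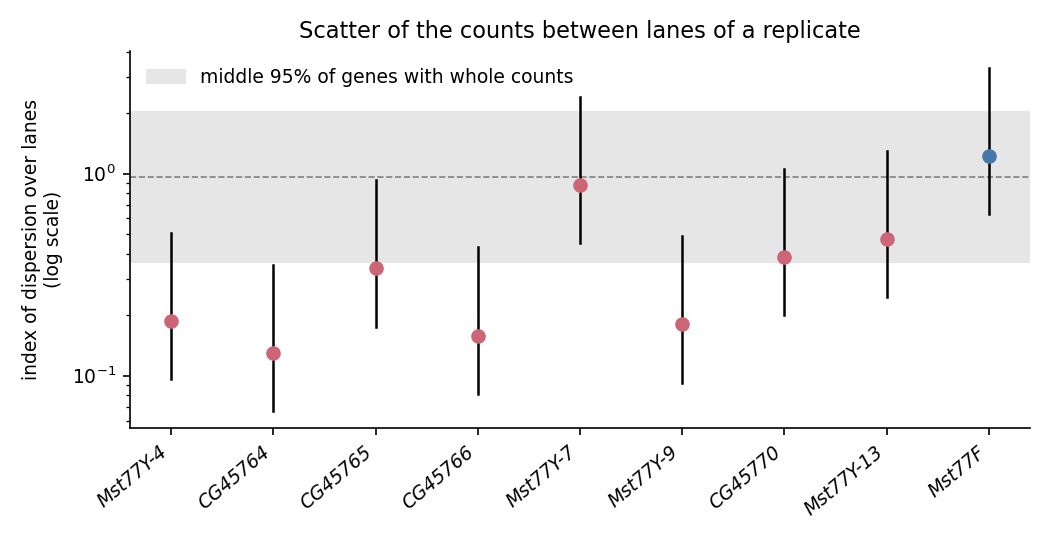
Index of dispersion of the counts over the 3 lanes of a replicate (log scale), pooled over the 6 replicates, for the 8 copies and *Mst77F*, with 95% intervals as lines. The grey band spans the middle 95% of genes with whole counts (0.366 to 2.02) and the dashed line their median (0.958), and *Mst77Y-4*, *CG45764*, *CG45765*, *CG45766* and *Mst77Y-9* lie below the band.

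Other genes of sperm chromatin and of the Y were counted beside the copies. Of 14 listed sperm nuclear basic protein and transition protein genes, 12 were tested, with a median log2 fold change of 0.11. Of the 12, 3 passed as higher, 2 as lower and 7 not at all. Over all 14059 genes tested, 14.5% passed as higher and 2503 genes as lower. *ProtA* and *ProtB*, the neighbouring, nearly identical protamine genes, went in opposite directions. *ProtA* had 21885, 26946 and 26156 normalized counts in the controls and 39565, 46997 and 50968 in the mutants (log2 fold change 0.88, SE 0.128, adjusted p = 0.00261). *ProtB* had 62026, 74174 and 69813 in control and 37016, 40601 and 45161 in the mutant (log2 fold change -0.75, SE 0.11, adjusted p = 0.00269). Neither pair of groups overlapped, and since the 2 genes are so alike, read pairs could be divided between them. *Tpl94D*, which encodes a transition protein, fell from 61275 to 35029 (log2 fold change -0.81, adjusted p = 0.00125 by edgeR). *Prtl99C*, a further protamine-like gene, had 24202 and 23880 (log2 fold change -0.02, adjusted p = 0.909 by edgeR).

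Of the 12 listed other genes of the Y, 0 passed as higher, 1 passed as lower and 11 did not pass. Of the same 12, 8 had a log2 fold change above 0 (median 0.14). Over all genes tested 14.5% passed as higher and 52.1% were above 0, so these counts do not set the list apart. The lowest fold change was that of *ORY*, with a log2 value of -0.45 (SE 0.122, adjusted p = 0.0303 by edgeR), and it was the 1 that passed. The highest was that of *kl-5*, which encodes a dynein heavy chain of the sperm tail, with 22376, 13827 and 13056 normalized counts in the controls and 34694, 16544 and 13486 in the mutants. Replicate 1 was the highest sample in both genotypes and the groups overlapped (log2 fold change 0.39, adjusted p = 0.472 by edgeR). None of the 8 *Mst77Y* copies had replicate 1 that far above the other replicates.

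Markers of other cells in the dissected tissue were counted too. Of 4 markers of somatic cyst and hub cells 1, *tj*, passed as higher (log2 fold change 0.46, adjusted p = 0.0102 by edgeR), as did 14.5% of all genes tested. *eya* (-0.10), *upd1* (-0.39) and *zfh1* (-0.11) were below 0 and did not pass. The 4 summed had 8614 to 9202 normalized counts in the controls and 8186 to 8407 in the mutants, lower without overlap. How many other genes were lower without overlap was not counted. Most of that sum is *eya*, whose groups overlapped, with 5146 to 5773 in control and 4538 to 5428 in the mutant. The 6 accessory gland genes, made outside the testis, were detected and varied between samples of 1 genotype, from 4148 to 33230 in control and from 9161 to 21160 in the mutant. The muscle sheath markers ran from 31100 to 36830 in control and from 29640 to 40050 in the mutant, and the fat body markers from 1120 to 2362 and from 1679 to 2352. None of these 3 lists had a gene that passed the test, and their ranges overlapped between genotypes. The summed germ line markers moved in the same direction as the *Mst77Y* copies in all 3 same-numbered pairs, as given above. Most of that sum is *betaTub85D*, *Mst87F* and *dj*, with control means of 237890, 146385 and 138670. *can* and *betaTub85D* were lower in mutant replicate 3 than in control replicate 3, and *Mst87F* in mutant replicate 2 than in control replicate 2. *vas*, *bam*, *aly* and *dj* were higher in each pair. The median log2 fold change was 0.23 for the markers and 0.65 for the copies. The part of germ line and somatic cell make-up in the rise of the *Mst77Y* copies was not tested.

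The genes whose counts followed the 8 summed copies most closely over the 6 samples, by Pearson's r of log2(normalized counts + 0.5) among 11339 other genes with a mean of at least 100 normalized counts, were *CG11771* (0.9998), *Prim2* (0.9994), *Vti1a* (0.9993), *CG31223* (0.9988) and *Cp7Fb* (0.9986). All 5 were higher in the mutant, from a log2 fold change of 0.37 for *CG11771*, with 7652 normalized counts in the controls and 9906 in the mutants, to *Cp7Fb*, an eggshell protein gene, with 1.37 and 637. For *Mst77F* r was 0.976. With 2 genotypes that do not overlap, r is set mostly by the difference between them, and 696 of the 11339 genes had an r over 0.95.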

How the data were processed

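Testis RNA, after removal of ribosomal RNA, was sequenced from both ends in 3 replicates of each genotype, each on 3 lanes. The authors used STAR 2.7.1a to map the pairs to BDGP6/dm6 and featureCounts, with strand taken into account, to count them on FlyBase genes; a pair with several alignments gave each an equal fraction. What they deposited are raw estimated counts, fractional for 657 to 773 genes per lane. A table whose 18 columns repeat the lane files was not used.

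Genotype and replicate number came from the labels. Counts were added over a replicate's lanes, then rounded. A filter of 10 counts in any 3 samples left 14059 genes. Differences were tested in R 4.3.3 by edgeR 4.0.16 with limma 3.58.1 (TMM scaling, quasi-likelihood) and Benjamini-Hochberg adjustment, without a block. The SE of a log2 fold change was derived from its F statistic, and intervals use the test's degrees of freedom. Sums of copies replaced their members as a single feature, and shares were compared by exact two-sided permutation. The tests were checked on simulated counts. Gene models, and the *Mst77Y* names of the copies, came from BDGP6.54 and RefSeq's table of the release 6 assembly, with a symbol for 17512 of 17575 identifiers. *Mst77Y* copies outside the assembled Y were not analysed here.

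The labels number the replicates 1 to 3 in both genotypes. Deviations from the genotype means correlated across genes by 0.541, 0.57 and 0.164 in same-numbered samples and by -0.571 to 0.119 in the others. The numbers meet the criterion for pairs set here (each above 0.1), although the labels do not say what a number shares. Control replicate 3 and mutant replicate 1, at 0.119, meet it too, so this criterion alone does not establish pairs. The reported tests are unpaired, and a fit with this block was an alternative, as were other scalings, DESeq2 1.42.0 with and without ashr 2.2.63, other filters, counts not rounded, single lanes, ribosomal and mitochondrial genes left out, and leaving out each replicate.

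Genes named in the text are the 8 copies, *Mst77F*, *mod*, the pseudogene copies with the highest and lowest control level, *ProtA*, *ProtB*, *Prtl99C* and *Tpl94D*, the other Y-linked genes with the highest and lowest fold change, and the 5 genes most like the sum. Of the 14 sperm chromatin genes, *CG30415* and *CG46191* were not tested, nor was *Yp1* of the 3 fat body genes. *tj*, *eya*, *upd1*, *zfh1* and *CR45772* were named after their values were seen. The members, lists and tests were chosen with earlier results of these data known. No sequences of the copies were used here. Counting error weighs most on *Mst77Y-9*, with 94.1 to 168 counts per sample before scaling, against 820.1 or more for each of the other copies.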

Additional observations from a re-analysis of the deposited data

How the results depend on the processing

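The rise of the 8 summed copies kept its direction and its call under all 19 alternatives, with log2 fold changes of 0.64 to 0.72 (0.67 to 0.72 with each replicate left out). So did 7 of the 8 copies, and all but *Mst77Y-9* therefore passed in every fit; the number of copies called was 7 or 8. With the replicate block, which takes same-numbered samples as pairs, 6409 genes were called in place of 4547 and the sum kept its call. The only call among the copies to change was that of *CG45764* relative to *Mst77F*. Leaving out a replicate gave 2611 (without mutant replicate 2) to 5895 called genes, with 2754 without control replicate 3. Relative to *Mst77F*, the sum differed by 0.08 to 0.17 with each replicate left out and never passed. For the copies near 0 the sign turned: *Mst77Y-4* was at -0.0166 in lane 2 alone and at -0.0312 to 0.0544 with each replicate left out, and *Mst77Y-9* at -0.10 to 0.0362. With all 18 copies as the denominator the share of *CG45764* rose by 1.03 points and that of *CG45765* fell by 1.72, with that of *Mst77Y-13* rising by 0.132. The difference in the share of *CG45766*, -0.191 points over all lanes, was -0.123, -0.135 and -0.319 in lanes 1, 2 and 3 alone and -0.276 with that denominator. The cause of these shifts was not tested. The 3 samples per genotype limit every exact test, and the division of shared read pairs limits what is known of a single copy.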
